A study of Homo sapiens with 16 samples.

Results

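The feedback inhibitors of TGF-beta signalling described here are 10 genes: SMAD7, SMAD6, SKI, SKIL, PMEPA1, LDLRAD4, TGIF1, SMURF1, SMURF2 and BAMBI. They were chosen by name from 20033 protein-coding genes of the RefSeq GRCh38 table. A peak was assigned to a gene when its summit, the position of highest signal, lay in the gene body or within 50 kb of it. This rule gave 687 peaks out of 399028 in 10 deposited lists. The peaks come from chromatin immunoprecipitation sequencing (ChIP-seq), which reads the DNA fragments held by an antibody, in the established human melanoma line A375. Cells were deprived of serum for 2 h. For a further 2 h they received either recombinant TGFB1 at 10 ng/mL or its vehicle, which was HCl at 4 mM and BSA at 1 mg/mL. All groups thus shared the line and the starvation. The antibodies were directed against SMAD2/3, H3K27ac, JUNB, ATF3 and MITF, with 1 library for each antibody and treatment.

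TGF-beta ligands bind a pair of receptor kinases at the cell surface, which phosphorylate SMAD2 and SMAD3. These join SMAD4, enter the nucleus and bind DNA, usually beside other transcription factors. The pathway is known to switch on genes whose products damp it. SMAD7 blocks the type I receptor and brings ubiquitin ligases to it, and SMAD6 does so mainly in the related BMP branch. SMURF1 and SMURF2 are such ligases. BAMBI is a receptor-like membrane protein without a kinase domain. PMEPA1 and its relative LDLRAD4 hold SMAD2 and SMAD3 at membranes, away from the receptor. SKI, its relative SKIL (SnoN) and the homeodomain protein TGIF1 are nuclear corepressors that act on SMAD complexes. H3K27ac is a histone mark of active promoters and enhancers. JUNB is an AP-1 subunit, ATF3 a related bZIP factor, and MITF the regulator of the melanocyte lineage.

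The clearest difference between the treatments lay in the SMAD2/3 lists. In vehicle 4 of the 10 genes had a SMAD2/3 peak, SMAD7, SMAD6, SKIL and PMEPA1, with 1 peak each, while 3.84% of all coding genes had one. With TGFB1, 9 of the 10 had one, with 41 peaks in all, while 47.7% of all coding genes had one. The exception was LDLRAD4. Of these 41 peaks, 36 overlapped no vehicle peak and are called TGFB1-only. In the whole list 10761 of 11406 peaks were TGFB1-only. The 36 lay at the same 9 genes, with a background of 46.8% of coding genes. The vehicle list was much the shorter, with 1247 peaks against 11406. When both were limited to the same number of strongest peaks, 9 TGFB1-only peaks at 5 genes were left, and 1 gene had a vehicle-only peak. The share of all genes under that limit was not computed, so these counts have no background. In the full lists no vehicle peak of these genes was without a TGFB1 counterpart (background 0.839%).

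The sequence just upstream of the start is shown for 5 of the genes, from RefSeq GRCh38.p14, 5′ to 3′ in the direction of transcription and ending 1 base before the outermost annotated start. SMAD6, SKIL, BAMBI and SMURF2 are shown because a SMAD2/3 peak of the TGFB1 list overlapped the stretch, and SMAD7 because none did although the gene had the most peaks. Capitals mark the letters searched on both strands: GTCTAGAC, the palindromic SMAD element; CAGAC, a short SMAD element that reads GTCTG on the other strand; GGCGCC, a GC-rich SMAD element; TGACGTCA, the ATF site; TGACTCA, the AP-1 site; and CACGTG and CATGTG, the MITF E-boxes. The stretches are chr15:66701986-66702235 (plus strand, SMAD6), chr3:170357465-170357714 (plus strand, SKIL), chr10:28677271-28677520 (plus strand, BAMBI), chr17:64662308-64662557 (minus strand, SMURF2) and chr18:48950966-48951215 (minus strand, SMAD7).
SMAD6 upstream: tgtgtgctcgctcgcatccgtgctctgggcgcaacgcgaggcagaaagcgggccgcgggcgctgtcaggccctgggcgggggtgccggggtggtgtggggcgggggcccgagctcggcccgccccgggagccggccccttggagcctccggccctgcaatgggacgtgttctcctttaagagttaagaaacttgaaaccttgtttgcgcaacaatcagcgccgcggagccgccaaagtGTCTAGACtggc
SKIL upstream: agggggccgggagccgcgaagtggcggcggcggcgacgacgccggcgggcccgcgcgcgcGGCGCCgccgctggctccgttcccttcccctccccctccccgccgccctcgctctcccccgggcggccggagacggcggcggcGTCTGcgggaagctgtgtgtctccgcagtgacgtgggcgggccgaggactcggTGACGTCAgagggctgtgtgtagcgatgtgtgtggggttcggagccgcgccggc
BAMBI upstream: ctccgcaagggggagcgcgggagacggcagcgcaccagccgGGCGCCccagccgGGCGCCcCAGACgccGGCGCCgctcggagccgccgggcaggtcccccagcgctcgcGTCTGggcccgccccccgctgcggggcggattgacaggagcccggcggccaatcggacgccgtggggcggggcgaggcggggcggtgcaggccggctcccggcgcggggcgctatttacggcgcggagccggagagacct
SMURF2 upstream: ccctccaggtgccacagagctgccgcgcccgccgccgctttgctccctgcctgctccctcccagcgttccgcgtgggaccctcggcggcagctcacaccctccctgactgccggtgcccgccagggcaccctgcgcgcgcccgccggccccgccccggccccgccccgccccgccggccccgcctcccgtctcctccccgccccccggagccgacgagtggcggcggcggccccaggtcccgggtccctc
SMAD7 upstream: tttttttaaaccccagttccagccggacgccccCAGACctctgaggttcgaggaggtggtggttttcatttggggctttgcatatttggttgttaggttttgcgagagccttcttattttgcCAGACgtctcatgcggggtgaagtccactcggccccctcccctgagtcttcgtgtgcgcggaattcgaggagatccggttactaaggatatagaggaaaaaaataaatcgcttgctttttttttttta

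The SMAD6 stretch held GTCTAGAC from 12 to 5 bases before the start, at chr15:66702224-66702231. The SMAD2/3 summit in vehicle, at 66702228, fell inside these letters, and the summit with TGFB1, at 66702205, lay 19 bp from them. These letters occurred in 0.207% of the 22198 annotated starts of coding genes in a window of the same 250 bases, and at 1 of the 28 annotated starts of the genes described here. In SKIL, TGACGTCA stood 54 to 47 bases before the start. The JUNB summits of both treatments lay 8 bp from it and the ATF3 summit, listed with TGFB1 only, 14 bp. TGACGTCA occurred upstream of 2.01% of all starts. The BAMBI stretch carried GGCGCC 3 times and CAGAC or its reverse 2 times, and the SMAD2/3 summit lay 1 bp from the nearest GGCGCC and 3 bp from the nearest CAGAC. Upstream of all starts, GGCGCC was found at 20.7% and CAGAC at 37.2%. Guanine and cytosine made up 81.2% of the BAMBI stretch, compared with a median of 62% over all starts, and shares among starts of like composition were not computed. The SMURF2 stretch, at 82%, held none of the 7 words searched, and the summit of its weak SMAD2/3 peak lay 87 bp past the start. The SMAD7 stretch held CAGAC 2 times and was covered by H3K27ac in both treatments, without a SMAD2/3 peak. Among the outermost starts, 6 of 9 held CAGAC; SKI has no entry in the promoter table used here. Neither TGACTCA (3.45% of all starts) nor CACGTG (7.37%) was found at any of the 28 starts. Such matches describe letters and not sites.

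**Figure D1:**
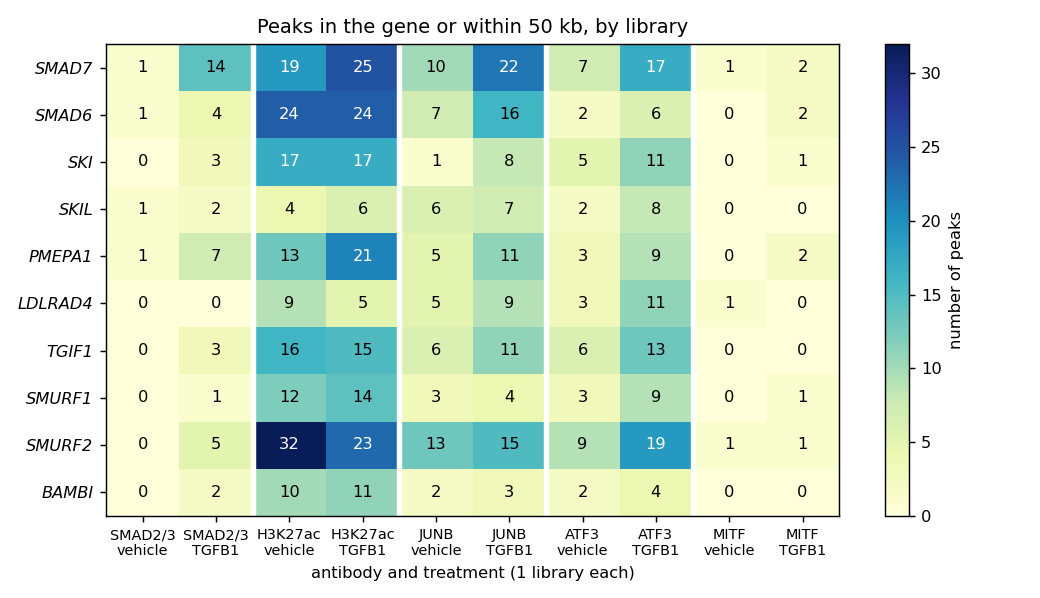
Number of peaks with a summit in the gene body or within 50 kb (cell values and colour), for the 10 genes (rows) in the 10 libraries (columns, 1 library per antibody and treatment). SMAD2/3 peaks number 4 in the vehicle column and 41 in the TGFB1 column, SMAD7 has the highest SMAD2/3 count with 14, and LDLRAD4 is at 0 in both.

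No group had a replicate, so the differences between treatments have no replicate check and no p-value is given. The labels' design text speaks of technical triplicates, while 1 library stands for each combination. Each vehicle and TGFB1 pair shared the date in its sample titles, which do not say what the date marks. Antibodies fell on 3 dates, with SMAD2/3 and H3K27ac on 1 of them, JUNB and ATF3 on another and MITF on its own. Read depth was estimated from the peak statistics, in units of 1e6 reads. It was 9.37 and 10.2 for SMAD2/3 (vehicle and TGFB1), 21.5 and 23.2 for H3K27ac, 34.1 and 47.7 for JUNB, 6.37 and 28.1 for ATF3, and 7.39 and 7.40 for MITF. The SMAD2/3 pair differed in another way, since the shortest peak was 311 bp in vehicle and 183 bp with TGFB1. The part of this difference in the counts was not tested beyond the alternatives given in the closing section. As markers of the line, all 4 dedifferentiated melanoma genes (AXL, NGFR, EGFR, NES) had H3K27ac within 1 kb of a gene end in both treatments. Of 7 pigment cell genes, SOX10, MITF and PMEL had it in vehicle and MLANA also with TGFB1, and TYR, DCT and TYRP1 had none. Epithelial KRT8 and KRT18 (2 of 4 genes), CD3E (1 of 3 blood genes) and 0 of 2 endothelial genes had it.

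Among the inhibitory SMADs, SMAD7 (chr18:48919853-48950965, minus strand) had the densest SMAD2/3 binding. It had 1 peak in vehicle and 14 with TGFB1. Only 5 of all coding genes, SMAD7 among them, had 14 or more. With equal list lengths 4 of its 13 TGFB1-only peaks were left, and 8 in a window of 10 kb. Corrected for window length the 14 peaks came to 10.7 peaks per 100 kb, a density reached by 0.0449% of genes. The median of the 10 genes was 1.96 per 100 kb, where the median of all genes was 0 and 1.90 was their 90th percentile. No other coding gene reaches into the SMAD7 window. The vehicle peak, chr18:48948547-48948936, had a fold enrichment of 5.37 (reads at the summit over local background, the authors' value) and a -log10 p of 8.70, rank 1078 of 1247 in its list. It lay in the body, 589 bp past an internal annotated start. The TGFB1 peaks ran from 47.4 kb upstream of the gene start to 77.5 kb downstream of it. Of these, 4 were upstream, 7 in the body and 3 beyond the end.

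Strongest at SMAD7 was chr18:48902004-48902317, 48.8 kb past the start and beyond the gene's end, with a fold enrichment of 17.7 and a -log10 p of 49.9 (rank 368 of 11406). Next came a wide peak 1.34 kb upstream, chr18:48951444-48952959, with 13.9 and 37.1. Another, in the body 8.21 kb from the start, had 15.4 and 32.2. That peak also lay 49 bp past an internal annotated start. The peak farthest downstream, chr18:48873265-48873658, had 11.8 and 31.2; its nearest coding gene is CTIF. At that site JUNB was already listed in vehicle (fold enrichment 21.5, -log10 p 111, rank 181 of 38514), while H3K27ac appeared with TGFB1 only, as 1 peak on either side of the SMAD2/3 summit (-log10 p 36.4 and 22.9).

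SMAD6 (chr15:66702236-66782849, plus strand) had 4 SMAD2/3 peaks with TGFB1 against 1 in vehicle. The shared site sat on the start itself. Its summit was 8 bp upstream of the start in vehicle (fold enrichment 5.20, -log10 p 11.9) and 31 bp upstream with TGFB1 (13.2 and 37.9, rank 660). H3K27ac lay on that site in both treatments, whereas JUNB and ATF3 were listed there with TGFB1 only; the ATF3 peak had a -log10 p of 32.3. The other SMAD6 peaks were 0.904 kb upstream (-log10 p 7.12), 63.8 kb into the body (18.3) and 101 kb past the start, beyond the gene's end (5.81). At the last of these JUNB was strong in both lists, at rank 357 in vehicle and 413 of 64407 with TGFB1.

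**Figure D2:**
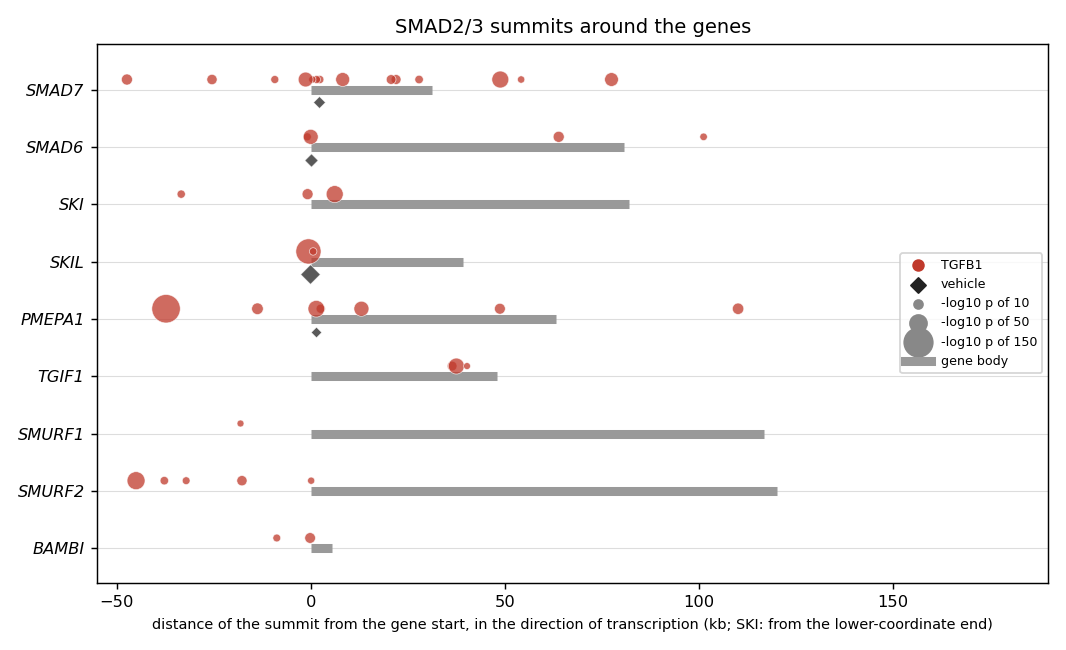
Summits of SMAD2/3 peaks (x axis: kb from the gene start in the direction of transcription, for SKI from the lower-coordinate end) at the 9 genes that have any, with circles for the TGFB1 library, diamonds for the vehicle library, symbol area by -log10 p and grey bars for gene bodies. The 4 vehicle summits lie near a start, and the largest circle, with a -log10 p of 150, lies 37.3 kb upstream of PMEPA1.

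Each of the nuclear corepressors had TGFB1-only SMAD2/3 peaks. SKIL (chr3:170357715-170396849, plus strand) had the strongest vehicle peak of the group, 124 bp upstream of its start, with a fold enrichment of 11.1 and a -log10 p of 31.8 (rank 172 of 1247). With TGFB1 a peak of 1324 bp, chr3:170356651-170357974, covered the start at 26.4 and 116.5, rank 56 of 11406, and its summit stood 610 bp upstream. A weak TGFB1-only peak lay 600 bp past the start (3.62 and 5.69). JUNB was listed at the SKIL start in both treatments and ATF3 with TGFB1 only (fold enrichment 15.0, -log10 p 39.1). SKI (chr1:2228319-2310213) had no vehicle peak and 3 with TGFB1. The strongest, chr1:2234174-2234778, lay 6.15 kb inside the lower-coordinate end of the body and had 12.4 and 50.4. Another was 0.836 kb outside that end (7.27 and 17.9), and the last, 33.4 kb outside, is nearest to FAAP20. TGIF1 (chr18:3412009-3459978, plus strand) had none in vehicle and 3 with TGFB1, all in the body 36.4 to 40.2 kb past the outermost start, where several internal starts are annotated. The summits lay 27 and 74 bp upstream and 649 bp past the nearest of these starts. The middle peak was the strongest (15.3 and 43.9, rank 493), and ATF3 was listed on it in both treatments.

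At the membrane proteins the 2 relatives PMEPA1 and LDLRAD4 parted. PMEPA1 (chr20:57648396-57711472, minus strand) had 1 vehicle peak and 7 with TGFB1, a count reached by 1.05% of coding genes. The vehicle peak, 30 bp upstream of an internal start, was among the weakest of its list (fold enrichment 2.78, -log10 p 5.76, rank 1222 of 1247). With TGFB1 2 peaks overlapped it, and the one at the same start had 10.6 and 48.2. The strongest SMAD2/3 peak of all 10 genes lay 37.3 kb upstream, chr20:57748472-57749250, with 31.8 and 150, rank 33 of 11406. In reads, its summit was recovered as 122 fragments over a local background of 2.87. JUNB was listed there in both treatments, and ATF3 and MITF with TGFB1 only. Another TGFB1-only peak, 13.0 kb into the body (12.7 and 38.3), coincided with the strongest JUNB peak of the group, at rank 99 in vehicle and 72 with TGFB1. LDLRAD4 (chr18:13217682-13652754, plus strand) had no SMAD2/3 peak in either list, although at 435 kb its body is the longest of the 10. JUNB peaks numbered 5 and 9 there, and ATF3 peaks 3 and 11. BAMBI (chr10:28677521-28682932, plus strand) had none in vehicle and 2 with TGFB1, one 182 bp upstream of the start (6.98 and 16.9) and one 8.77 kb upstream (4.95 and 6.66). Neither BAMBI peak had JUNB, ATF3 or MITF on it.

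The ubiquitin ligases differed from each other, with 5 SMAD2/3 peaks at SMURF2 and 1 at SMURF1. SMURF2 (chr17:64542282-64662307, minus strand) had 5 TGFB1-only peaks, 4 of them upstream at 17.7 to 45.0 kb. The farthest, chr17:64707091-64707552, was the strongest (14.1 and 56.9, rank 295), and JUNB was already listed there in vehicle (rank 381). The peak at the SMURF2 start was weak (2.64 and 4.87). SMURF1 (chr7:99027440-99144108, minus strand) had a single peak, 18.3 kb upstream and nearest to KPNA7, which ranked 11290 of 11406 (3.18 and 4.27). ATF3 and JUNB were listed at that place in both treatments.

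Over the whole group, the 41 TGFB1 peaks had a median -log10 p of 15.0 and a median fold enrichment of 7.01, against 10.6 and 5.71 for all 11406 peaks of the list. Of the 41, 12 were among the 1000 strongest and 2 among the 100 strongest. All 4 vehicle peaks lay within 1 kb of an annotated start of their own gene, compared with 6.37% of the vehicle list within 1 kb of any annotated start. With TGFB1, 14 of 41 did, at 7 genes, compared with 18.1% of the list. SKI has no annotated start in the promoter table used here, so its peaks among the 41 could not count. For 36 of the 41 the nearest coding gene was the gene itself. The window edge matters for a few: 4 peaks lay 40 to 50 kb from a body (-log10 p 18.3 to 56.9), and 5 lay just outside, at 50 to 60 kb (8.85 to 20.9).

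**Figure D3:**
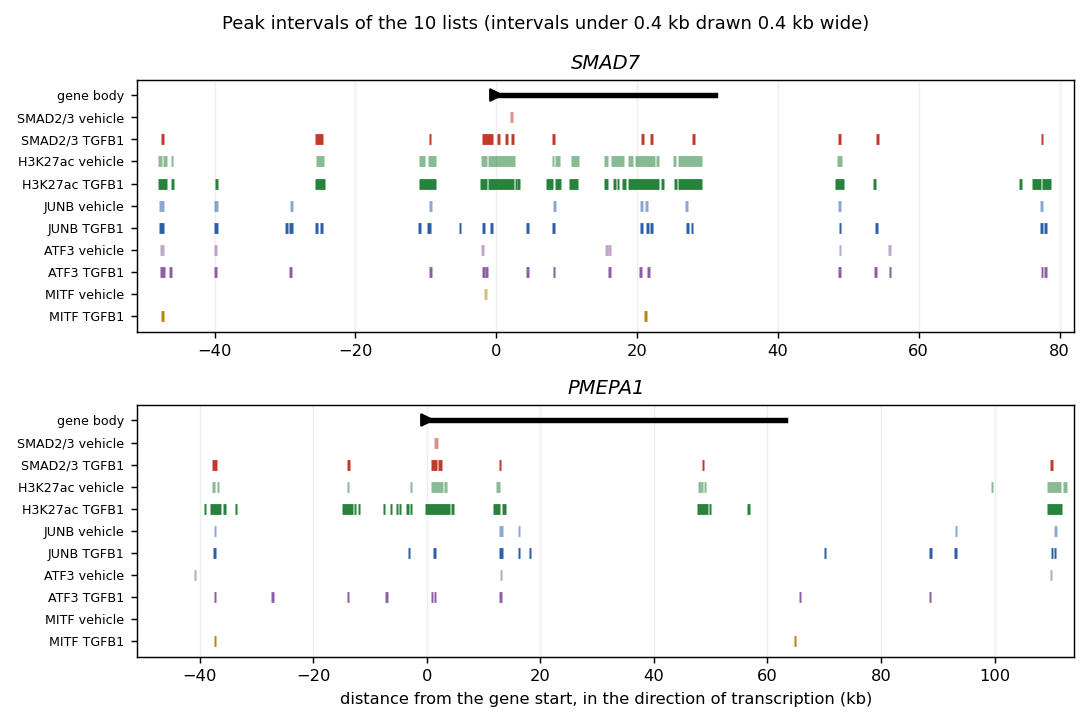
Peak intervals of the 10 lists (rows, pale for vehicle and full colour for TGFB1) around SMAD7 and PMEPA1, on a scale of kb from the gene start in the direction of transcription, with the gene body in black. SMAD2/3 rows go from 1 interval in vehicle to 14 (SMAD7) and 7 (PMEPA1) with TGFB1, mostly where H3K27ac intervals are also drawn in the vehicle row.

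Most SMAD2/3 sites of these genes were also acetylated in cells that had received vehicle. H3K27ac of the vehicle list overlapped 38 of the 41 (92.7%, 95% Wilson interval 80.6 to 97.5), compared with 69.5% of all SMAD2/3 peaks in the TGFB1 list. H3K27ac of the TGFB1 list overlapped 39 (95.1%, 83.9 to 98.7), compared with 75.7%. The sites with H3K27ac in the TGFB1 list alone numbered 2, the one 77.5 kb past the SMAD7 start and the one 32.1 kb upstream of SMURF2. The SMURF1 site had it in the vehicle list alone, and the weak SMAD7 site 54.2 kb past the start in neither. Such intervals cover counting error only, and peaks of 1 gene are not independent. By the rule the 41 lay in or within 50 kb of a gene, while the whole list was not so limited. The shares were not matched for this.

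JUNB of the TGFB1 list overlapped 29 of the 41 sites (70.7%, 55.5 to 82.4), compared with 62.0% of all SMAD2/3 peaks, and JUNB of the vehicle list 18. ATF3 of the TGFB1 list overlapped 23 (56.1%, 41.0 to 70.1), compared with 45.9%, and ATF3 of the vehicle list 10. By the estimate the TGFB1 library was 1.40 times as deep as its pair for JUNB and 4.41 times for ATF3. The part of depth in these overlap counts was not tested. For JUNB and ATF3 the background share lay within the interval. JUNB and ATF3 together marked 22 sites, JUNB alone 7, ATF3 alone 1 and neither 11; for all SMAD2/3 peaks these shares were 42.3%, 19.7%, 3.57% and 34.4%. The 11 without either factor all had H3K27ac and included both BAMBI peaks. The JUNB summit lay a median of 30 bp from the SMAD2/3 summit, within 50 bp at 18 of 29 sites, and the ATF3 summit a median of 43 bp, within 50 bp at 13 of 23. MITF of the TGFB1 list overlapped 5 sites (12.2%, 5.32 to 25.5), compared with 11.9%, at a median of 97 bp. Summit distances were measured only between overlapping peaks, which keeps them short. They were not computed for all SMAD2/3 peaks.

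**Figure D4:**
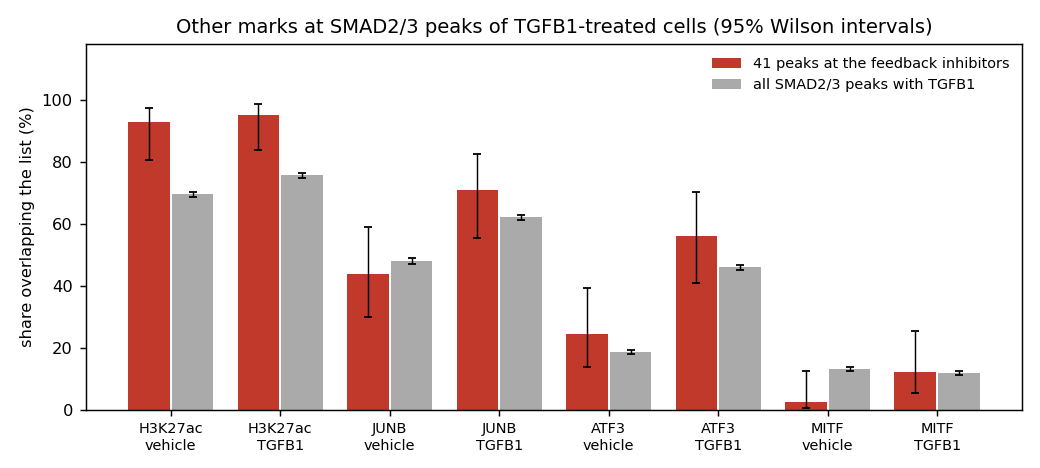
Share of SMAD2/3 peaks of the TGFB1 library (y axis, percent) that overlap a peak of each other list (x axis), in red for the 41 peaks at the 10 genes and in grey for all 11406, with 95% Wilson intervals. For H3K27ac the red bars stand at 92.7% and 95.1% and the grey ones at 69.5% and 75.7%; for JUNB and ATF3 with TGFB1 the intervals of the red bars include the grey bars.

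All 10 genes had H3K27ac peaks in both lists, 156 in vehicle and 161 with TGFB1, and so did 91% and 91.1% of all coding genes. TGFB1-only H3K27ac peaks numbered 39 at 9 genes (background 55.3%), and vehicle-only peaks 17 at 7 genes (background 52.5%). Over the whole lists these classes held 17650 of 80990 and 13319 of 79172 peaks. PMEPA1 held 14 of the 39, a number reached by 0.185% of coding genes, SMAD7 8 (1.49%) and SMURF1 7 (2.20%). The others had 3 or fewer, and LDLRAD4 none. Most were weak: their -log10 p ran from 3.29 to 47.1. In a list of this kind 1 wide domain can be divided into several peaks. Peaks of both lists were also extended by 500 bp at each end before they were compared. This left 20 of the 39 and 7 of the 14 at PMEPA1.

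The strongest TGFB1-only H3K27ac peak lay 7.45 kb upstream of PMEPA1 (chr20:57718759-57719201, fold enrichment 11.1, -log10 p 47.1). It was 1 of a row of TGFB1-only intervals between the gene start and the SMAD2/3 sites 13.7 and 37.3 kb upstream. At the 37.3 kb site H3K27ac was listed in vehicle as a peak of 521 bp with a -log10 p of 11.3, and with TGFB1 as a peak of 1952 bp with 158. Beside it the vehicle list held a further peak of 237 bp (-log10 p 9.33), which also overlapped the TGFB1 list. The -log10 p values of the 2 lists rank peaks within their own list only. In SMURF1, 6 of the 7 TGFB1-only peaks lay in the body 92.6 to 103 kb past the start, the strongest with a -log10 p of 11.8, far from the single SMAD2/3 site. Of the 39 peaks, 2 overlapped a SMAD2/3 peak and 10, these included, lay within 1 kb of a SMAD2/3 peak, edge to edge (25.6%, compared with 12.5% of all TGFB1-only H3K27ac peaks). Of 122 shared H3K27ac peaks 42 did (34.4%, compared with 19.7%), and of the 17 vehicle-only peaks 2 did (11.8%, compared with 3.83%). Within 5 kb the shares were 48.7% of TGFB1-only, 47.1% of vehicle-only and 54.1% of shared peaks. Such nearness was thus not particular to TGFB1-only acetylation. The SMAD2/3 density of these windows was not allowed for.

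By length, H3K27ac peaks covered 9.13 kb of the PMEPA1 window in vehicle and 20.04 kb with TGFB1, a ratio of 2.19 that 1.35% of genes exceeded. SMURF1 went from 6.06 to 9.87 kb (1.63) and SMAD7 from 21.9 to 28.1 kb (1.28). SMURF2 had a ratio of 1.27, SKIL 1.20, SKI 1.08, BAMBI 1.03, TGIF1 0.949, LDLRAD4 0.935 and SMAD6 0.896. The median of the 10 was 1.14, and that of all genes 1.03. At least 1.5 times more length with TGFB1 was thus found at 2 of the 10 genes, compared with 5.6% of all genes covered in both lists, and none had 1.5 times less (1.76%). In each of the 10 windows the strongest H3K27ac peak of either list overlapped a peak of the other. At LDLRAD4 a weak peak with its summit 178 bp upstream of the start (-log10 p 6.37) was listed in vehicle only.

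**Figure D5:**
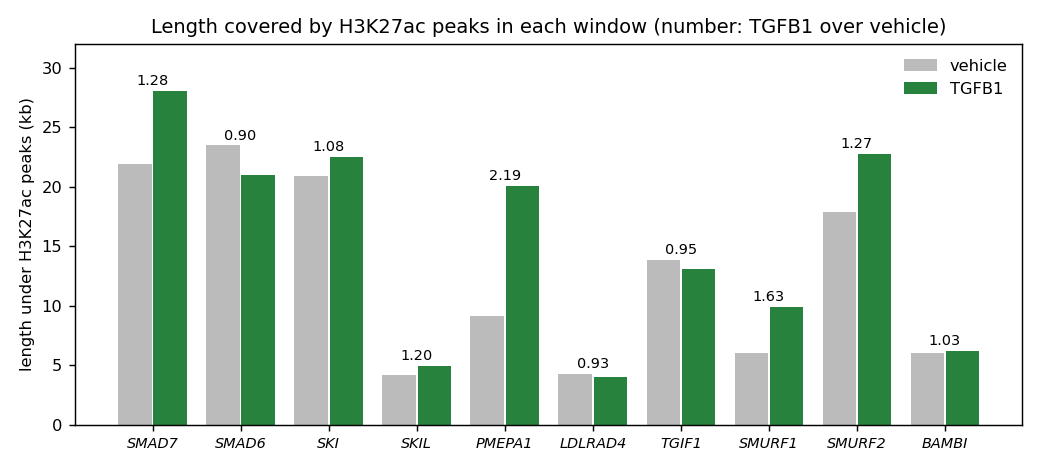
Length under H3K27ac peaks (y axis, kb) in the window of each gene (x axis), in grey for vehicle and green for TGFB1, with the ratio above each pair. PMEPA1 has the highest ratio at 2.19 and SMURF1 follows at 1.63, while SMAD6, TGIF1 and LDLRAD4 lie just under 1.

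JUNB peaks at the 10 genes numbered 58 in vehicle and 106 with TGFB1, with all genes marked in both lists (background 82% and 90.8%). TGFB1-only JUNB peaks numbered 55 and lay at all 10 (background 85.1%), and 6 were vehicle-only, at 4 genes (51.4%). Over the whole lists these classes held 37457 of 64407 and 11262 of 38514 peaks. SMAD7 went from 10 to 22 and SMAD6 from 7 to 16. SKI went from 1 to 8. The strongest TGFB1-only JUNB peak coincided with the SMAD2/3 peak 25.5 kb upstream of SMAD7 (fold enrichment 15.6, -log10 p 61.2, rank 5171 of 64407). Of the 55, 13 overlapped a SMAD2/3 peak (23.6%), compared with 4.73% of all TGFB1-only JUNB peaks, and of 51 shared ones 18 did (35.3%, compared with 19.6%). These comparisons made no allowance for SMAD2/3 density, a median of 1.96 peaks per 100 kb at the 10 genes and 0 over all genes. The JUNB library with TGFB1 was 1.40 times as deep as its pair by the estimate, and 53 of the 55 peaks were still callable when reads were divided by that ratio.

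ATF3 peaks numbered 42 and 107 (background 76.7% and 91.8%). TGFB1-only peaks numbered 79 at all 10 genes (88.6%), and vehicle-only peaks 14, also at all 10 (56.7%). Over the whole lists these classes held 48653 of 62997 and 35250 of 49563 peaks. Here depth moves with the count: the TGFB1 library was 4.41 times as deep by the estimate, and 23 of the 79 were callable when reads were divided by that ratio. The part of depth in the ATF3 count beyond this division was not tested. The strongest ATF3 peak of the group, 47.3 kb upstream of SMAD7, was listed in both treatments (rank 442 of 49563 and 285 of 62997) and had a SMAD2/3 peak on it with TGFB1. The strongest TGFB1-only ATF3 peaks were at the SMAD7 site 8.22 kb into the body (14.7 and 49.5) and at the SKIL start.

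MITF peaks were few. SMAD7, LDLRAD4 and SMURF2 had 1 each in vehicle (background 39.7%), and SMAD7, SMAD6, SKI, PMEPA1, SMURF1 and SMURF2 had 9 in all with TGFB1 (background 38.3%). No MITF peak was shared between the lists, so the 3 were vehicle-only (background 23.9%) and the 9 TGFB1-only (21.1%). In the whole TGFB1 list 2738 of 5037 MITF peaks were shared. Of the 9, 5 overlapped a SMAD2/3 peak (55.6%, 26.7 to 81.1), compared with 26.3% of all TGFB1-only MITF peaks. As for JUNB, no allowance was made for SMAD2/3 density, and peaks of 1 gene are not independent. At SMAD6 1 of these 5 MITF peaks, chr15:66701619-66701940, ended upstream of the start at 66702236. Its summit lay 466 bp from the SMAD2/3 summit. Another lay 63.9 kb into the SMAD6 body. The other places were 47.4 kb upstream of SMAD7, 37.2 kb upstream of PMEPA1 and the SMURF2 start. The -log10 p of these 5 ran from 4.49 to 11.1. The highest MITF value of the group was 13.9, in the SKI body, away from SMAD2/3.

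Other genes of the pathway were counted in the same windows. Of 11 known targets, 10 had a SMAD2/3 peak with TGFB1 and 3 in vehicle, CDKN2B being the one without; the strongest were at COL7A1 (-log10 p 187), BHLHE40 (183) and LTBP2 (120). Of 12 receptors, ligands and SMADs, 7 had one with TGFB1 and 1 in vehicle; TGFB2 (62.1), TGFB1 (35.7) and SMAD3 (31.1) led, and SMAD2 and SMAD4 had none. Of 9 other negative regulators, 7 had one and 0 in vehicle, with FKBP1A, which holds the type I receptor inactive, at 87.3, NEDD4L, a ubiquitin ligase, at 30.3 and the phosphatase subunit gene PPP1R15A at 16.4. Of 6 partners of the inhibitors, 3 had one: SIN3A (12.5), HDAC3 (9.78) and HDAC1 (7.83). TGFB1-only H3K27ac was found at 10 of the 11 targets, 10 of the 12, 6 of the 9 and 4 of the 6. The shares of all genes given above apply to these counts too. They were 3.84% for SMAD2/3 in vehicle, 47.7% for SMAD2/3 with TGFB1 and 55.3% for TGFB1-only H3K27ac. These gene lists were chosen with earlier results of these data known.

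By the profile of peak counts over the 10 libraries, measured as Euclidean distance on log2(count + 1), TGIF1 was most like UBE2H (distance 0.326, median over all genes 4.29). BAMBI was most like RPL37 (0.472 against 3.01), LDLRAD4 like SLC1A3 (0.547 against 3.41) and SMURF2 like ETS1 (0.605 against 5.83). For SMAD7 the nearest gene stood at 1.25 (against 6.3). The libraries share dates and depths, so these distances are descriptions only.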

How the data were processed

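ChIP-seq peak lists of 10 A375 libraries were used; the 6 inputs have no list and were not analysed here. Reads were aligned with Bowtie to GRCh38 and peaks called with MACS2 (2.0), per the submitters' processing notes, and each list belongs to 1 library. Which input served as control is not given in the sources used here. For every peak the authors deposited a fold enrichment (a linear ratio) and -log10 p and -log10 q values. The authors' deposited score was not used. These values describe or rank peaks within their own list only. Exons and introns were not used here.

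Summits were matched to RefSeq GRCh38 gene bodies and windows of 50 kb in Python 3.11.15 (scipy 1.17.1, numpy 2.4.6, pandas 2.3.3; figures with matplotlib 3.10.9). Overlap meant at least 1 shared bp; a treatment-only peak overlapped none of the same antibody's other list. Whole reads at the summit and the background were solved from fold enrichment and -log10 p. Depth was then estimated from the lowest background and shortest peak with a genome of 2.7 Gb; library totals were not used here. Counting was checked on simulated data. Shares carry 95% Wilson intervals, for counting error only. Every member is named. For single peaks the strongest per gene, antibody and class and each vehicle SMAD2/3 peak are given, with some further peaks chosen after their values were seen. The members and gene lists were chosen with earlier results of these data known. Alternatives changed the window, assignment, thresholds, overlap, list length and depth.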

Additional observations from a re-analysis of the deposited data

How the results depend on the processing

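The counts of genes with a treatment-only peak were recomputed under 9 alternatives, giving 90 values, of which 73 stayed within 1.5 times the reported count. Shares of all genes were not recomputed under the alternatives. Genes with TGFB1-only SMAD2/3 peaks numbered 9, and 5 when the longer list was shortened to the length of the shorter one, with 9 peaks left of 36; genes with vehicle-only SMAD2/3 peaks numbered 0, 2 with a reciprocal overlap of 50% and 1 with equal list lengths. Genes with TGFB1-only H3K27ac numbered 9, and 5 with a margin of 500 bp added to each end of the peaks of both lists. For vehicle-only peaks, H3K27ac had 7 genes, but 4 at a -log10 q of at least 5 and 3 at a fold enrichment of at least 6. JUNB had 4, but 2 in a window of 10 kb, 8 with the reciprocal overlap and 7 with equal lengths. ATF3 had 10, but 4 and 5 under the -log10 q and fold limits. MITF had 3, but 1 at 10 kb, 5 at 100 kb, 1 with the nearest gene only, 0 at either limit and 1 with equal lengths. The causes were not tested. The peak counts of single genes moved more often: of 50 such counts per alternative, between 8 (500 bp margin) and 31 (fold limit) moved by over 1.5 times, with 25 at 10 kb, 23 at 100 kb, 19 under the -log10 q limit and 18 with equal lengths. With equal lengths TGFB1-only SMAD2/3 peaks went from 13 to 4 at SMAD7, 5 to 2 at PMEPA1, 5 to 1 at SMURF2, 3 to 1 at SKI and TGIF1, 3 to 0 at SMAD6, 2 to 0 at BAMBI and 1 to 0 at SKIL and SMURF1. In a window of 10 kb they were 8 at SMAD7, 2 at PMEPA1 and 1 at SMURF2, and in one of 100 kb LDLRAD4 had 1. Dividing reads by the depth ratio, an alternative chosen after seeing the data, left every such gene count within 1.5 times, although ATF3 TGFB1-only peaks went from 79 to 23. No paired analysis was possible because each antibody and treatment has 1 library. Depth limits what weak peaks can show, and a peak missing from a list is not shown to be absent from the cells.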
